A study of Homo sapiens with 24 samples.

Results

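The comparison sets 6 arrays of HEK293 cells harvested 72 h after MOTS-c was added against 6 arrays harvested after 4 h. The members were taken from the treatment and time given in the sample labels, and they are 12 of the 24 arrays of the series. HEK293 is a human embryonic kidney cell line, grown here in medium with fetal bovine serum, and all 4 groups of the series were made from it. Per the labels, cells received water as the control or 10 µM MOTS-c, and each treatment was harvested at 4 h and at 72 h, with 6 arrays per group. RNA was measured across genes on Illumina bead arrays, 1 array per sample. The 12 control arrays are used below only to show where the change over time differed with the peptide. No group was harvested before the peptide was added, so time since the addition and time in culture ran together in treated cells and cannot be told apart within this comparison. The cells are 1 line in culture with no other cells named in the labels, and in bulk RNA fewer cells of a kind and less RNA per cell cannot be told apart.

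MOTS-c is a short peptide read from an open reading frame within the mitochondrial ribosomal RNA gene, and it is known for links to AMPK signalling and to folate and purine metabolism. Cells kept in one dish for days use up glucose, amino acids and lipids, become crowded and condition their medium. Known responses to such changes include the ATF4 programme for amino acid supply, the SREBP programme for cholesterol, growth arrest genes of the p53 pathway and secreted inflammatory factors driven by NF-kB.

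All levels below are log2 intensities after background correction and quantile normalization, and a log2 change is the 72 h mean minus the 4 h mean with the standard error (SE) of the limma model and n = 6 arrays per group. Where 3 levels are given for a group, they are those of its lowest, median and highest array, in that order. The threshold for a called gene was a limma p under 0.05 after Benjamini-Hochberg adjustment over all 13283 genes tested. Of these, 2645 (19.9%) rose and 2422 (18.2%) fell from 4 h to 72 h in treated cells, together 38.1%. Most changes were small. At least 2-fold changes were called for 75 genes that rose (0.565%) and 43 that fell (0.324%), and the median log2 change of all genes was 0.01. The 6 arrays at 72 h lay wholly above the 6 at 4 h for 1294 genes (9.74%) and wholly below for 1199 (9.03%). Mean probe intensity was 520.1 ± 72.7 (SD over 6 arrays) at 4 h and 483 ± 70.7 at 72 h, and 20719 to 21703 probes were detected per array at 4 h against 21741 to 22778 at 72 h. Beside the changes, 53 genes were undetected on all 6 arrays at 4 h and detected on all 6 at 72 h, and 10 the reverse. Genes that pass a detection filter only through the arrays of 1 group are bound to differ. The labels do not say that replicates were separate cultures, so the p-values rest on the spread between these arrays alone, part or all of which may be technical, and the number of arrays limits the precision.

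The arrays were checked against marker genes of the cell line and of other cell types. HEK293 cells are known to carry transcripts of the neuronal lineage, and 10 of 12 neuronal markers were measured, of which 6 rose and 1 fell. Of 10 embryonic kidney markers 7 were measured and 1 fell, LHX1, a transcription factor of the early nephron, by 0.37. Markers of the mature tubule were nearly absent, with 1 of 9 measured. Of markers of cells that the cultures should lack, 6 of 9 leukocyte, 5 of 8 fibroblast, 1 of 7 endothelial and 2 of 6 hepatocyte genes passed the detection filter. Summed linear levels of the leukocyte markers were 865 to 1274 at 4 h and 795 to 886 at 72 h, those of the fibroblast markers 406 to 472 and 464 to 493, and those of the hepatocyte markers 79 to 120 and 82 to 116. The single endothelial marker, VWF, and the macrophage receptor CSF1R were undetected on all 12 arrays of treated cells.

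Secreted inflammatory genes headed the genes that rose. NF-kB is a family of transcription factors that a stimulus frees from its inhibitors in the cytosol, after which they turn on chemokines, cytokines and their own inhibitors. CCL20, a chemokine that draws lymphocytes and dendritic cells, had a lowest, median and highest level of 5.05, 5.15 and 5.58 on the 6 arrays at 4 h and of 8.08, 8.22 and 8.37 at 72 h. The groups did not overlap, and at 4 h CCL20 was detected on 1 of 6 arrays, as it was on 1 of 6 control arrays at 4 h. It thus passed the detection filter through the 72 h arrays, which favours a rise. Its 4 h level lay near background, so the size and p of its rise are those of the fit. The log2 change was 3.02 (SE 0.0818, limma adjusted p = 3.74e-20). CXCL8, the neutrophil chemokine also called interleukin-8, went from 6.14, 6.44 and 6.84 at 4 h to 9.03, 9.31 and 9.64 at 72 h, again without overlap. This is a log2 change of 2.81 (SE 0.131, adjusted p = 1.18e-14), and a second probe of the gene gave 1.56. The cytokine gene IL32 rose by 2.14 (SE 0.113, adjusted p = 9.98e-14) from 5.77, 6.19 and 6.59 to 8.04, 8.33 and 8.51, and its other probe rose by 1.06. RELB, a subunit of the noncanonical NF-kB dimer, rose by 1.34 (SE 0.0937, adjusted p = 2.20e-11), from 5.62, 5.79 and 6.02 to 6.91, 7.10 and 7.50.

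The 250 bases before the annotated start of CCL20 and of CXCL8 are shown because these were the genes with the largest rise, with capitals marking matches on either strand to a loose form of the NF-kB motif, GGG and CC with any 5 bases between them, and to the TATA box letters TATAAA (RefSeq, GRCh38.p14, plus strand).
CCL20 at chr2:227813592-227813841: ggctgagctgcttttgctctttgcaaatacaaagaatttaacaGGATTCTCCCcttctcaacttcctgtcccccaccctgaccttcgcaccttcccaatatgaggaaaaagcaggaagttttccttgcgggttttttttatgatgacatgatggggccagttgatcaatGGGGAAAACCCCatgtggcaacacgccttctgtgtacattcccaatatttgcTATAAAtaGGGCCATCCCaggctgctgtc
CXCL8 at chr4:73740319-73740568: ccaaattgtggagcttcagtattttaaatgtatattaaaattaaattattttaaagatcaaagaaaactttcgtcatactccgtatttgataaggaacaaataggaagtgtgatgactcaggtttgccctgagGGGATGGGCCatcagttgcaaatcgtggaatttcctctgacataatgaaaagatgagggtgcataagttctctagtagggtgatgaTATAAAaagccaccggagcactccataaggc
The NF-kB letters were found in 54.4% of 35116 promoters of this length and in 13 of the 14 promoters given for the 18 measured NF-kB and inflammatory genes. A high share was not particular to these genes. The letters were in 12 of 13 promoters of the ID and BMP feedback genes and 16 of 19 of the cholesterol genes. For the histone genes it was 5 of 22. A match is a description of letters, not of binding, and matches of this palindrome-like motif on the plus and minus strands can overlap. Sites with letters other than this form stay in lower case, so capitals do not mark the known sites of a gene.

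Of the 22 NF-kB and inflammatory genes listed, 18 were measured, 11 rose, 0 fell and the list's median log2 change was 0.36. With the 3 members that were undetected on all 6 arrays of a group set at their bound, the median was 0.20. CXCL1, a neutrophil chemokine like CXCL8, rose by 1.59 (SE 0.116, adjusted p = 4.79e-11). CXCL2, its close relative, was undetected on all 6 arrays at 4 h and detected on 5 at 72 h, and it was at least 1.08-fold higher at 72 h. The control cells give the contrast for these genes. The list's median change over the same time was 1.39 without the peptide, a fitted value with no member set at a bound. By the test of the difference, 12 of 18 members had a smaller change in treated than in control cells. A gene detected only on the 6 control arrays at 72 h also passed the filter, which favours a larger rise in control cells. The part of this in the 12 was not tested. Among all genes, that test called 16.7% higher in treated cells and 17.4% lower. CCL20 rose by 5.81 (SE 0.0818) in control cells, and the time effect with MOTS-c minus that without was -2.79 (SE 0.116, adjusted p = 2.05e-15). For CXCL8 the control change was 4.80 and the difference -1.99 (SE 0.185, adjusted p = 1.04e-08). The control change of CXCL1 was 4.27 and the difference -2.68 (SE 0.164, adjusted p = 4.27e-12). NFKBIA, which encodes the inhibitor IkB-alpha and was singled out after its values were seen, changed by 0.07 in treated cells (adjusted p = 0.553) and by 1.16 in control cells.

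**Figure D1:**
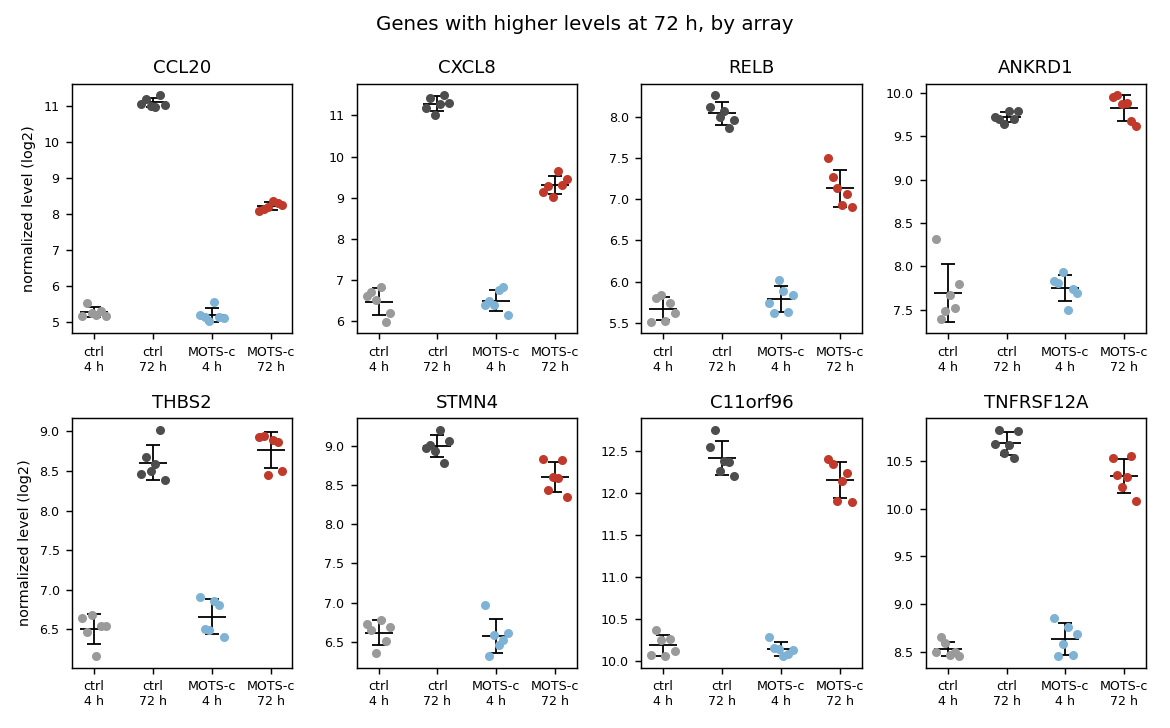
Normalized log2 level of 8 genes on each array, by group, with the mean and SD (n = 6). CCL20, CXCL8 and RELB sat higher at 72 h than at 4 h with and without MOTS-c, with the 72 h arrays of treated cells below those of control cells, while ANKRD1 and THBS2 reached overlapping levels at 72 h in both.

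Immediate early genes, transcription factors that are induced within minutes of growth factors or stress, rose with them. Of 22 measured, 16 rose and 2 fell, with a median log2 change of 0.37 against 0.85 in control cells. FOSB, a partner of JUN in the AP-1 dimer, lay at 6.64, 6.80 and 6.91 at 4 h and 7.80, 7.95 and 8.16 at 72 h, with no overlap and a log2 change of 1.18 (SE 0.0739, adjusted p = 2.95e-12). Its relative FOS rose by 1.14 (SE 0.096, adjusted p = 6.22e-10) and was detected on 4 of 6 arrays at 4 h and 6 of 6 at 72 h. ATF3, a stress-induced repressor of transcription, rose by 1.12 (SE 0.0551, adjusted p = 2.15e-14), and another probe of it rose by 2.39. MYC and DUSP6, a phosphatase for ERK, were the 2 members that fell, by 0.16 and 0.23, and both calls were lost under median scaling over all probes, where 16 members rose and 0 fell. MYC was called higher over time in control cells, at 0.78. The time effect was smaller with MOTS-c for 13 of 22 members and larger for 1.

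Targets of ATF4, the transcription factor that restores amino acid supply when translation is restrained, rose as well. Among 33 measured genes of this programme and of serine synthesis, 18 rose and 1 fell, the latter PHGDH, the first enzyme of serine synthesis, by 0.23. The call of PHGDH was lost under both median scalings, where 20 and 19 members rose and 0 fell. The median log2 change was 0.25, against 0.35 in control cells. DDIT3, which encodes the stress factor CHOP, lay at 9.02, 9.11 and 9.37 at 4 h and at 9.93, 10.13 and 10.19 at 72 h. It rose by 0.94 (SE 0.0715, adjusted p = 1.04e-10), without overlap, and the change in control cells was 1.96, a difference with MOTS-c of -1.02 (SE 0.101, adjusted p = 2.92e-08). CEBPG, a dimerization partner of ATF4, rose by 0.66 (SE 0.0637, adjusted p = 6.30e-09). Several enzymes and carriers the programme is named for did not pass the test: ASNS, which makes asparagine, changed by 0.15 (adjusted p = 0.12), PSAT1 of serine synthesis by 0.08 (adjusted p = 0.337) and ATF4 itself by 0.08 (adjusted p = 0.306). The methionine cycle and polyamine genes had 9 of 19 higher and 1 lower, with a median of 0.21, and 10 higher and 0 lower under median scaling over all probes. CTH, which makes cysteine from cystathionine, rose by 0.44 (SE 0.0918, adjusted p = 0.000425) with groups that overlapped, and another of its probes gave 0.11 (adjusted p = 0.53). ODC1, the first enzyme of polyamine synthesis, rose by 0.44 (SE 0.0664, adjusted p = 9.16e-06), and SAT1, which acetylates polyamines for their breakdown and export, rose by 0.38 (SE 0.0617, adjusted p = 2.67e-05).

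Folding genes moved apart. Of 20 measured genes of the endoplasmic reticulum stress response, 5 rose and 5 fell, and under median scaling over all probes 4 rose and 2 fell. HSPA5, the main chaperone of that compartment, rose by 0.39, XBP1, a transcription factor of the response, by 0.58 and EDEM1, which sends misfolded glycoproteins for degradation, by 0.51, with adjusted p-values of 3.10e-06, 2.02e-06 and 7.85e-07. Of 17 cytosolic heat shock genes 8 fell and 2 rose, and under median scaling over all probes 3 fell. The near-identical inducible HSP70 genes HSPA1A and HSPA1B, whose probes may not tell them apart, gave log2 changes of -0.50 and -0.45 (adjusted p = 2.52e-06 and 6.45e-06). CRYAB, a small heat shock protein, was undetected on all 6 arrays at 4 h and detected on 4 of 6 at 72 h, with levels of 4.64, 4.75 and 4.78 and 5.06, 5.40 and 5.58. It is counted among the 2 that rose. It was also undetected on all 6 control arrays at 4 h, so it passed the detection filter through the 72 h arrays alone. Set at its bound it showed no rise.

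Interferon-stimulated genes did not move one way. Of 30 measured, 9 rose and 9 fell, with a median log2 change of -0.14 against 0.17 in control cells. PSMB8 and PSMB9, catalytic subunits of the immunoproteasome that cuts peptides for antigen presentation, rose. PSMB8 went from 5.41, 5.86 and 6.18 at 4 h to 7.12, 7.32 and 7.57 at 72 h, a log2 change of 1.51 (SE 0.106, adjusted p = 2.38e-11). PSMB9 rose by 1.06 (SE 0.082), while its other probe gave 0.23. PSMB9 was detected on 3 of 6 arrays at 4 h with MOTS-c and on 1 of 6 in control cells. At 72 h it was detected on 6 of 6 in both. It thus passed the detection filter through the 72 h arrays, which favours a rise, and no p is given for it. The immunoproteasome did not rise as a unit. PSMB10, a further catalytic subunit of it singled out after its values were seen, fell by 0.26 (SE 0.094, adjusted p = 0.0309). In control cells PSMB10 rose by 1.19, and the difference was -1.45 (SE 0.133, adjusted p = 7.83e-09). The other listed genes of antigen presentation, picked out after their values were seen, were HLA-B, which rose by 0.81, HLA-C by 0.32 and B2M by 0.40, while the peptide transporter subunit TAP1 changed by -0.01 (adjusted p = 0.885). Classical HLA genes are near-identical in part, so their probes may read each other. In the other direction, IFIT1, an antiviral protein that binds foreign RNA, fell by 0.93 (SE 0.0902, adjusted p = 8.08e-09), from 8.13, 8.28 and 8.43 to 7.09, 7.32 and 7.62. The interferon pathway factors IRF9 and IRF7, also picked after their values were seen, fell by 0.94 and 0.79. IRF7 was higher over time in control cells, at 0.42, and the test of the difference gave -1.21 (adjusted p = 4.64e-06). The second probe of IRF7 changed by -0.25 in treated cells. For 15 of 30 members the time effect was lower with MOTS-c than without, and for 1 it was higher.

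Histone genes were among those that fell the most. Replication-dependent histones supply the nucleosomes of newly copied DNA, and their transcripts end in a stem-loop and mostly lack the poly(A) tail that the oligo-dT labelling step of these arrays starts from. Of 23 measured histone genes 16 fell and 1 rose, with a median log2 change of -0.67. H2BC5, a histone H2B gene, lay at 9.16, 9.33 and 9.46 at 4 h and at 7.33, 7.53 and 7.75 at 72 h. The groups did not overlap, the log2 change was -1.79 (SE 0.0837, adjusted p = 1.18e-14) and a second probe gave -1.63. H2AC6, an H2A gene, fell by 1.51 (SE 0.0886, adjusted p = 8.37e-13), from 8.42, 8.64 and 8.72 to 6.70, 7.11 and 7.42. H2BC21 fell by 1.09 (SE 0.0657, adjusted p = 1.26e-12). H3-3B, which encodes the replacement histone H3.3 from a polyadenylated transcript, was the member that rose, by 0.32 (adjusted p = 0.00107). Histone genes are near-identical within a class, so a probe may read several of them. In control cells the list's median was -0.95 with 18 of 23 lower, and for 8 members the time effect was less negative with MOTS-c, for H2BC21 by 0.89 (SE 0.0928, adjusted p = 6.83e-08). For H2BC5 the difference was 0.04 (SE 0.118, adjusted p = 0.838).

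The 250 bases before the start of H2BC5 and H2AC6 are shown because these histone genes fell the most, with capitals marking CCAAT boxes (letters CCAAT) and TATA boxes (letters TATAAA) on either strand (RefSeq, GRCh38.p14, plus strand).
H2BC5 at chr6:26157871-26158120: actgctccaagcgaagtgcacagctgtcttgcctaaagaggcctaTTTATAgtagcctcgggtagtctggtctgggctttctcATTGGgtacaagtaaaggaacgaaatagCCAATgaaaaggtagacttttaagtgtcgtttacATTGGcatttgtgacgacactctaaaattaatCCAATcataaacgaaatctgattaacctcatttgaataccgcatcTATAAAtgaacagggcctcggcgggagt
H2AC6 at chr6:26123922-26124171: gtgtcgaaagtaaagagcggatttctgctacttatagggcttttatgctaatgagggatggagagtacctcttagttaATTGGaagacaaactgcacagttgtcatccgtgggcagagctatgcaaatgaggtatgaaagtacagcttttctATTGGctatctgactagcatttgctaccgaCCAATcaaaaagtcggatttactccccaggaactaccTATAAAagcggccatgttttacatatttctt
CCAAT was present in 18 of the 22 promoters given for the measured histone genes and in 32% of all 35116 promoters of this length. TATAAA was present in 15 of the 22 and in 10.7% of all. A high CCAAT share was not particular to histone genes, since 27 of 33 mitosis promoters and 16 of 19 cholesterol promoters held it. For the glycolysis genes it was 5 of 20.

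Other genes of the division cycle were split. Of 40 measured genes of DNA replication and the G1/S step, 8 rose and 11 fell, and of 38 genes of mitosis 9 rose and 10 fell, shares close to the 19.9% and 18.2% of all genes for the higher calls and above them for the lower. Under median scaling over all probes the lower calls numbered 4 and 2 and the higher calls 5 and 8. In control cells 22 of the 38 mitosis genes fell and 8 rose, with a median of -0.23 against -0.05 with MOTS-c. Their time effect was higher with MOTS-c for 13 and lower for 2, against 16.7% and 17.4% of all genes. Of the 40 replication genes 13 fell and 10 rose in control cells, and the time effect was higher with MOTS-c for 6 and lower for 4. RRM2, the small subunit of ribonucleotide reductase that makes DNA precursors, rose by 0.59 (SE 0.0794, adjusted p = 1.59e-06). CCND1, the cyclin that opens G1, fell by 0.50 (SE 0.0681, adjusted p = 2.27e-06), and POLA2 of the primase complex fell by 0.40 (adjusted p = 1.29e-05). AURKB, a kinase of chromosome segregation, rose by 0.49 (adjusted p = 5.15e-06) and NUSAP1, a spindle protein, by 0.45 (adjusted p = 8.57e-07), while CENPA, the centromeric histone, fell by 0.35 (adjusted p = 2.09e-05), with its other probe at -0.07. Targets of p53 rose more often than they fell, with 11 of 24 higher and 1 lower and a median of 0.20. GADD45A, a stress-induced growth arrest gene, went from 10.44, 10.61 and 10.97 to 11.42, 11.54 and 11.58 and rose by 0.88 (SE 0.0801, adjusted p = 2.44e-09). CDKN1A, the inhibitor p21 of cyclin-dependent kinases, rose by 0.63 (SE 0.0809, adjusted p = 7.81e-07), and DDB2 of nucleotide excision repair rose by 0.68 (SE 0.0672, adjusted p = 1.08e-08). None of these 3 had a called difference from control cells, with differences of -0.18, 0.11 and -0.07 (SE 0.113, 0.114 and 0.095).

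Cholesterol genes fell together. The SREBP2 transcription factor raises the enzymes of cholesterol synthesis when sterols in the cell run low and lets them fall when sterols are ample. Of 21 measured genes 13 fell and 0 rose, with a median log2 change of -0.50. NSDHL, an enzyme that removes methyl groups from sterol precursors, lay at 11.17, 11.28 and 11.41 at 4 h and at 10.36, 10.40 and 10.48 at 72 h and fell by 0.87 (SE 0.0603, adjusted p = 2.07e-11). TM7SF2, a sterol reductase, went from 9.45, 9.67 and 9.83 to 8.35, 8.57 and 8.83, a log2 change of -1.10 (SE 0.0913, adjusted p = 4.92e-10). MSMO1, the methyl sterol oxidase, fell by 0.85 (SE 0.0717, adjusted p = 6.47e-10), with 1 of its 3 probes at -0.13. The groups did not overlap for any of these 3 genes. The list's median in control cells was -0.51, and single members differed in both directions: NSDHL fell more with MOTS-c, with a difference of -0.45 (SE 0.0853, adjusted p = 0.000187), and MSMO1 fell less, with a difference of 0.78 (SE 0.101, adjusted p = 1.72e-06). In all, 6 members had a higher and 5 a lower time effect with the peptide.

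Of 14 measured genes of fatty acid synthesis, 7 fell and 1 rose, and under median scaling over all probes 3 fell and 2 rose. The desaturase FADS2 fell by 0.79 (SE 0.117, adjusted p = 6.69e-06), the elongase ELOVL6 by 0.48 (SE 0.0641, adjusted p = 1.73e-06) and the desaturase SCD by 0.40 (SE 0.0566, adjusted p = 3.04e-06). All 3 fell less than in control cells, with differences of 0.43, 0.35 and 0.27 (adjusted p = 0.0478, 0.00426 and 0.00945). Fatty acid oxidation had 7 of 23 genes lower and 0 higher, and under median scaling over all probes 3 were lower and 1 higher. In control cells 14 of these 23 were lower and 3 higher, and the time effect was higher with MOTS-c for 9 and lower for 2. CPT2, which hands fatty acids to the matrix enzymes, fell by 0.45 (SE 0.056, adjusted p = 4.90e-07), and the oxidation enzymes DECR1 and ECHS1 fell by 0.36 and 0.37 (adjusted p = 5.79e-05 and 7.65e-05).

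**Figure D2:**
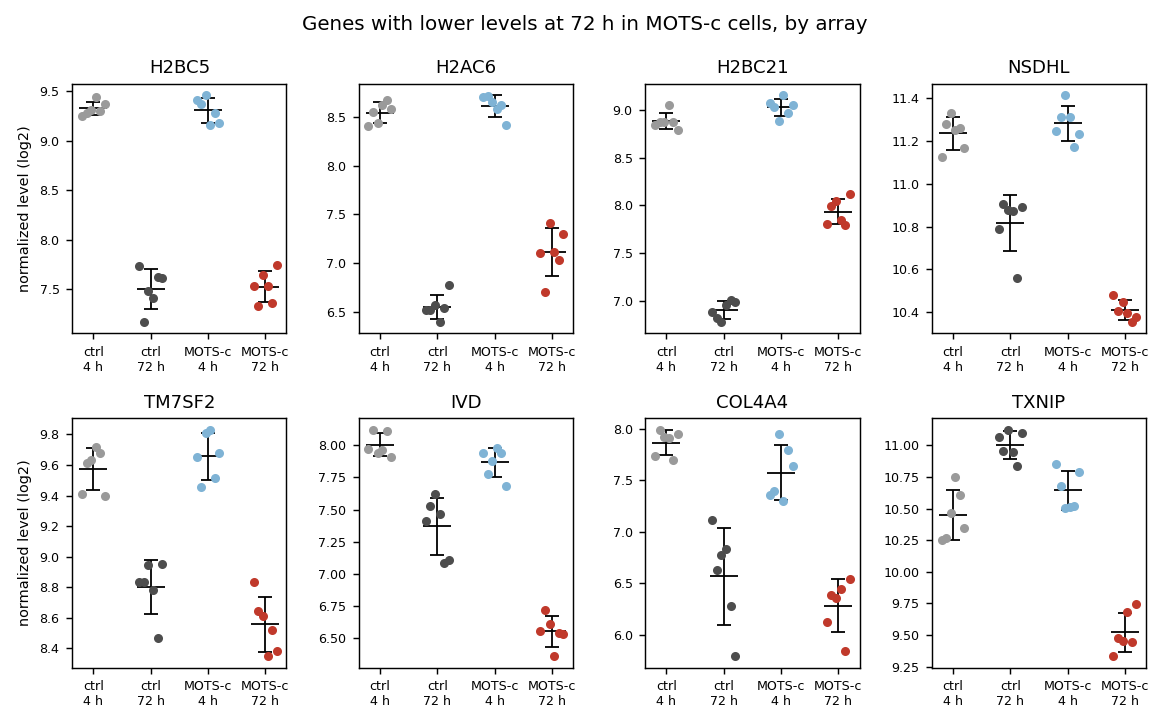
Normalized log2 level of 8 genes on each array, by group, with the mean and SD (n = 6). The histone genes H2BC5, H2AC6 and H2BC21, the sterol enzymes NSDHL and TM7SF2, the leucine enzyme IVD and the collagen COL4A4 were lower at 72 h with and without MOTS-c, and TXNIP was lower at 72 h with MOTS-c and higher without it.

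Glycolysis genes rose more often than they fell, with 7 of 22 higher, 1 lower and a median of 0.13, and with 10 higher and 0 lower under median scaling over all probes. PFKP, the platelet isoform of phosphofructokinase, rose by 0.56 (SE 0.0609, adjusted p = 4.80e-08), from 11.05, 11.25 and 11.29 to 11.56, 11.81 and 11.91. ENO2, the neuronal enolase, rose by 0.83 (SE 0.0784, adjusted p = 4.44e-09), and the hexokinase HK2 by 0.47 (SE 0.093, adjusted p = 0.00027). Genes of the hypoxia response, which HIF transcription factors induce at low oxygen, had 9 of 25 higher and 3 lower, with a median of 0.10 against -0.26 in control cells. With the 1 member undetected in a group set at its bound the median was 0.08, and under median scaling over all probes 7 were higher and 0 lower. ANKRD37, a small ankyrin-repeat gene under HIF control, was detected on 1 of 6 arrays at 4 h and 6 of 6 at 72 h and rose by 1.40 (SE 0.155, adjusted p = 7.33e-08). Its rise exceeded that in control cells by 1.06 (SE 0.219, adjusted p = 0.000493). NDRG1, a hypoxia-induced gene of cell differentiation, rose by 0.89 (SE 0.0918, adjusted p = 2.03e-08) and the clock repressor BHLHE40 by 0.53 (SE 0.0499, adjusted p = 5.23e-09). HIF1A, the oxygen-sensitive HIF subunit, singled out after its values were seen, fell by 0.33 (adjusted p = 0.00938) and fell by 1.07 in control cells. The time effect of 11 members was higher with MOTS-c and that of 2 was lower.

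Nuclear-encoded genes of oxidative phosphorylation had 17 of 70 lower and 6 higher, a direction that turned under median scaling over all probes, with 13 higher and 6 lower. In control cells 29 of the 70 were lower and 7 higher, and the time effect was higher with MOTS-c for 17 and lower for 4. NDUFA8 of complex I fell by 0.39 (SE 0.0591, adjusted p = 8.72e-06), and COX5B of complex IV fell by 0.35 (SE 0.0655, adjusted p = 0.000149). The call of COX5B was lost under both median scalings and with the deposited scores (adjusted p = 0.0742 to 0.25). UQCRC1 of complex III rose by 0.36 (SE 0.0648, adjusted p = 9.28e-05). Of 28 genes of pyruvate dehydrogenase and the TCA cycle 7 rose and 5 fell, and under median scaling over all probes 6 rose and 3 fell. In control cells 8 of the 28 rose and 13 fell, and the time effect was higher with MOTS-c for 13 and lower for 2. IDH2, the mitochondrial NADP-linked isocitrate dehydrogenase, rose by 0.57 (SE 0.0774, adjusted p = 2.14e-06), while ACO1, the cytosolic aconitase, fell by 0.43 (SE 0.0546, adjusted p = 5.92e-07) and PDK2, a kinase that inhibits pyruvate dehydrogenase, by 0.49 (SE 0.0578, adjusted p = 2.08e-07).

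The purine and folate genes bear on the pathways that MOTS-c is known for. Of 12 measured genes of de novo purine synthesis 7 rose and 0 fell, with a median of 0.21 against 0.08 in control cells. Under median scaling over all probes 5 rose and 0 fell. IMPDH2, which commits purines to guanine nucleotides, lay at 11.14, 11.25 and 11.44 at 4 h and at 11.67, 11.81 and 11.93 at 72 h, with no overlap, and rose by 0.54 (SE 0.0654, adjusted p = 3.32e-07). GMPS, the next enzyme, rose by 0.43 (SE 0.0726, adjusted p = 3.81e-05), and ATIC, which closes the purine ring, by 0.27 (SE 0.0691, adjusted p = 0.00322). In control cells GMPS changed by 0.09 and ATIC by -0.03, and the differences were 0.34 (SE 0.103, adjusted p = 0.0118) and 0.30 (SE 0.0977, adjusted p = 0.0201). IMPDH2 did not have a called difference, at 0.21 (SE 0.0925, adjusted p = 0.0802). In all, 2 of 12 members had a higher time effect with MOTS-c and 0 a lower one. Among all genes tested that test called 16.7% higher and 17.4% lower, so the higher share was that of all genes. PPAT, the enzyme of the first committed step, changed by -0.06 (adjusted p = 0.559). The folate enzymes were split, with 3 higher and 3 lower of 15, but under median scaling over all probes 4 were higher and 0 lower. Among them MTHFD1L of the mitochondrial branch rose by 0.54 (adjusted p = 6.05e-06), the folate carrier SLC19A1 rose by 0.39 (adjusted p = 0.000523) and MTHFS, which returns stored folate to the cycle, fell by 0.29 (adjusted p = 0.000262).

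Genes of insulin, AKT, FOXO and AMPK signalling had 6 of 26 higher and 5 lower, and 5 higher and 2 lower under median scaling over all probes. PRKAB1, a regulatory subunit of AMPK, rose by 0.46 (SE 0.0621, adjusted p = 1.49e-06), and IRS4, the insulin receptor substrate that HEK293 cells are known to express, fell by 0.71 (SE 0.0943, adjusted p = 1.38e-06). TXNIP, an inhibitor of glucose uptake and thioredoxin, moved in opposite directions with and without the peptide. With MOTS-c its level lay at 10.51, 10.60 and 10.85 at 4 h and at 9.33, 9.47 and 9.74 at 72 h, a log2 change of -1.12 (SE 0.0886, adjusted p = 1.89e-10). In control cells it lay at 10.25, 10.41 and 10.75 at 4 h and 10.83, 11.01 and 11.12 at 72 h, a change of 0.55 (SE 0.0886, adjusted p = 5.37e-06). The groups did not overlap between times in either culture, and the difference of the 2 changes was -1.68 (SE 0.125, adjusted p = 1.99e-10).

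Lysosome and autophagy genes had 13 of 36 lower and 4 higher, and under median scaling over all probes 9 were lower and 5 higher. In control cells 20 were lower and 7 higher, with a median of -0.33 against -0.06 with MOTS-c. The time effect was higher with MOTS-c for 12 members and lower for 2, against 16.7% and 17.4% of all genes. CTSA, a lysosomal carboxypeptidase, fell by 0.67 (SE 0.0829, adjusted p = 4.46e-07) and GLA, the galactosidase of Fabry disease, by 0.39 (SE 0.0555, adjusted p = 3.39e-06), while GABARAPL1, a ubiquitin-like protein of the autophagosome, rose by 0.46 (SE 0.0548, adjusted p = 2.66e-07). The proteasome was close to level, with 4 of 32 genes higher and 3 lower, both shares below those of all genes, and a median of 0.02, and under median scaling over all probes 5 were higher and 1 lower. Over the same time control cells had 18 of these genes lower and a median of -0.25, and 16 members had a higher time effect with MOTS-c against 3 with a lower one. PSMA2, a subunit of the core ring, fell by 0.53 with MOTS-c and fell by 1.37 without, a difference of 0.84 (SE 0.136, adjusted p = 3.14e-05). PSMA5, also of the core ring, rose by 0.24 (SE 0.0583, adjusted p = 0.00202), and its groups overlapped. PSME4, an activator of the core, rose by 0.19 (SE 0.0578, adjusted p = 0.0114), with a difference of 0.62 (SE 0.0818, adjusted p = 1.89e-06).

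Ribosome biogenesis, which supplies the processing factors of ribosomal RNA, had 5 of 32 genes higher and 5 lower, with a median of 0.04 against 0.27 and 18 higher in control cells. Under median scaling over all probes 5 were higher and 2 lower. RRP12, a factor of subunit maturation, rose by 0.99 (SE 0.0642, adjusted p = 4.95e-12), BYSL, a factor of the small subunit, rose by 0.32 (SE 0.0593, adjusted p = 0.000119), and TAF1C of the RNA polymerase I initiation factor fell by 0.34 (SE 0.0585, adjusted p = 5.07e-05), with its other probe at -0.05. The time effect was lower with MOTS-c for 14 members and higher for 1. Ribosomal protein genes had 4 of 59 higher and 6 lower, and under median scaling over all probes 35 were higher and 1 lower, so their direction rests on the scaling. Their pseudogenes are near-identical and may share probes. RPL37 rose by 0.64 (adjusted p = 2.02e-06) by 1 probe and changed by 0.03 by the other, RPL28 fell by 0.37 (adjusted p = 0.000252) and RPL29 by 0.26 (adjusted p = 0.00185).

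Genes under YAP and TEAD control, which respond to cell shape and crowding, included a strong rise. ANKRD1, an ankyrin-repeat cofactor and a standard YAP target, lay at 7.50, 7.77 and 7.93 at 4 h and at 9.62, 9.88 and 9.97 at 72 h, with no overlap and a log2 change of 2.08 (SE 0.108, adjusted p = 7.61e-14). In control cells it rose by 2.03, and the difference was 0.05 (SE 0.153, adjusted p = 0.837). Of 20 measured targets 7 rose and 2 fell, with a median of 0.06, or of 0.02 with the 2 members that were undetected in a group set at their bound. Under median scaling over all probes 5 rose and 0 fell. CCN1, a matrix-bound signalling protein, rose by 0.64 (SE 0.0818, adjusted p = 7.58e-07) and FJX1, a secreted kinase-like protein, by 0.35 (SE 0.0708, adjusted p = 0.000303). ID proteins and BMP feedback genes had 8 of 17 lower and 3 higher. SMAD6, an inhibitor of BMP signalling that BMP itself induces, fell by 0.90 (SE 0.0895, adjusted p = 1.25e-08). ID2, an inhibitor of differentiation factors, fell by 0.70 (SE 0.0829, adjusted p = 2.13e-07), and the ligand BMP7 by 0.46 (SE 0.0703, adjusted p = 9.61e-06).

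Adhesion and matrix genes had 11 of 33 higher and 6 lower, and under median scaling over all probes 9 were higher and 0 lower. In control cells 8 of the 33 were higher and 16 lower, and the time effect was higher with MOTS-c for 10 and lower for 2. CDH1, E-cadherin of epithelial junctions, lay at 8.28, 8.31 and 8.43 at 4 h and at 9.07, 9.27 and 9.49 at 72 h and rose by 0.92 (SE 0.0654, adjusted p = 2.79e-11). The tight junction gene CLDN1 rose by 0.60 (SE 0.0861, adjusted p = 3.82e-06), and TIMP3, an inhibitor of matrix proteases, by 0.58 (SE 0.0764, adjusted p = 1.31e-06). All 5 measured of 8 keratinocyte and carcinoma markers rose, CDH1 among them, with the keratin gene KRT8 at 0.55 and EPCAM at 0.30; their summed linear level was 9930 to 12045 at 4 h and 13432 to 14852 at 72 h, and the part of other cells in this was not tested. In the neuronal list SYP, the synaptic vesicle protein synaptophysin, rose by 1.28 (detected on 3 of 6 arrays at 4 h) and the neurofilament gene NEFM by 0.64. The summed level of the neuronal markers was 10239 to 11876 at 4 h and 11260 to 12487 at 72 h.

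Smaller lists completed the set. Clock genes had 6 of 19 higher and 1 lower, with the repressor PER2 rising by 1.05 (SE 0.103, adjusted p = 8.33e-09) and the output gene DBP falling by 0.62 (SE 0.101, adjusted p = 2.76e-05). NRF2 targets had 3 of 17 higher and 5 lower, a balance that turned under median scaling over all probes, with 4 higher and 1 lower. Among them SRXN1, which restores oxidized peroxiredoxin, rose by 0.58 (adjusted p = 2.03e-08), TKT of the pentose phosphate pathway rose by 0.30 (adjusted p = 0.000419), and the quinone reductase NQO1 fell by 0.52 (adjusted p = 3.20e-06). Metallothioneins, small proteins that bind zinc and copper, were measured through 6 genes with their regulator MTF1, and 1 fell, MT1X, by 0.27 (adjusted p = 0.0345). Without any 1 of 8 single arrays of treated cells (replicates 1, 2, 3 and 6 at 4 h and 2, 4, 5 and 6 at 72 h) this call was lost, with an adjusted p of 0.0504 to 0.0883. In control cells MT1X rose by 0.75 and MT2A by 0.59, and the differences were -1.02 (SE 0.14, adjusted p = 3.74e-06) and -0.79 (SE 0.147, adjusted p = 0.000169). MT2A changed by -0.20 with MOTS-c (adjusted p = 0.132), and MTF1 by 0.14 (adjusted p = 0.194).

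**Figure D3:**
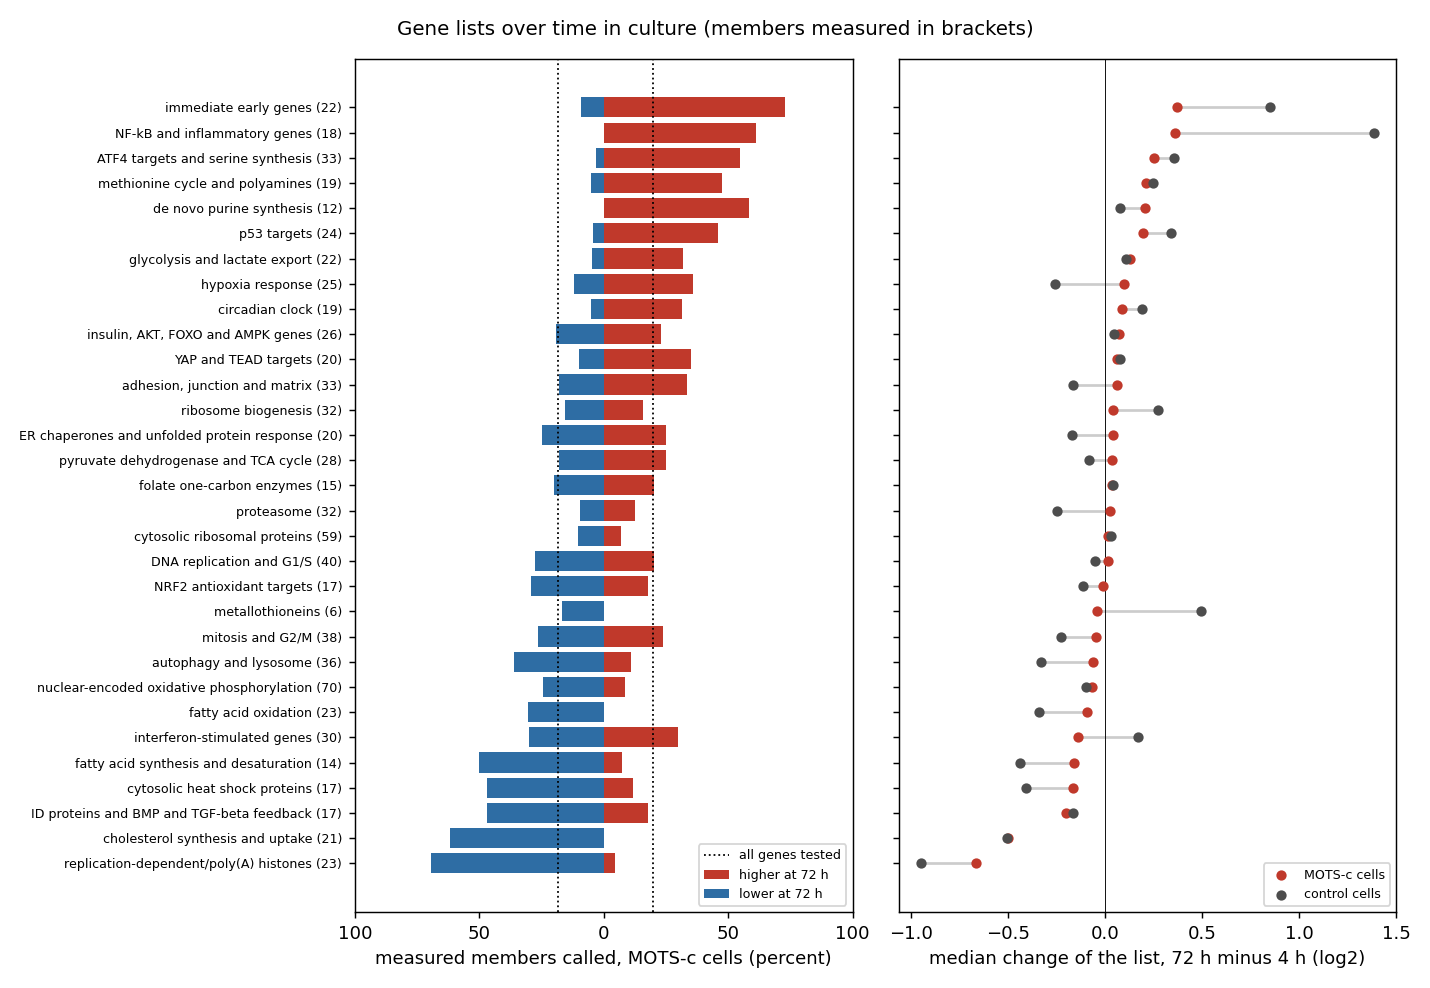
Left, percent of the measured members of each gene list that rose (red) or fell (blue) from 4 h to 72 h in MOTS-c cells, with the shares of all genes, 19.9% and 18.2%, as dotted lines. Right, median log2 change over time of each list in MOTS-c cells (red) and control cells (grey): the histone and cholesterol lists lie lowest in both, and the NF-kB list lies at 0.36 with MOTS-c against 1.39 without.

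Single genes outside the lists made up the rest of the largest changes. THBS2, a matrix protein of the thrombospondin family, went from 6.40, 6.66 and 6.91 at 4 h to 8.44, 8.88 and 8.95 at 72 h and rose by 2.10 (SE 0.115, adjusted p = 2.08e-13). C11orf96, a gene with little known function, went from 10.05, 10.13 and 10.28 to 11.89, 12.19 and 12.41 and rose by 2.02 (SE 0.0928, adjusted p = 1.18e-14). STMN4, a microtubule regulator of the stathmin family, rose by 2.03 (SE 0.0995, adjusted p = 2.15e-14) and TNFRSF12A, the receptor of the cytokine TWEAK, by 1.71 (SE 0.0816, adjusted p = 1.37e-14). The 72 h arrays lay above the 4 h arrays in all 4 genes. CALCB, a calcitonin gene-related peptide, rose by 1.67 (SE 0.112, adjusted p = 9.88e-12). SH2D3C, a signalling adaptor, rose by 1.63 by 1 probe and by 0.47 by the other, and DHRS2, a short-chain dehydrogenase, by 1.60 and 0.94. TCIM, a regulator of Wnt signalling, was undetected on all 6 arrays at 4 h and detected on all 6 at 72 h, and it was at least 2.36-fold higher at 72 h. TCIM was also undetected on all 6 control arrays at 4 h, so it passed the detection filter through the 72 h arrays alone and no p is given for it. In control cells THBS2 rose by 2.10, C11orf96 by 2.24, STMN4 by 2.38 and CALCB by 1.92. None of these 4 had a called difference, which for THBS2 was -0.00087 (SE 0.163, adjusted p = 0.997).

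Among the genes that fell, IVD, the mitochondrial isovaleryl-CoA dehydrogenase of leucine breakdown, went from 7.68, 7.91 and 7.98 at 4 h to 6.36, 6.55 and 6.72 at 72 h, a log2 change of -1.31 (SE 0.0835, adjusted p = 3.98e-12). It fell more than in control cells, with a difference of -0.68 (SE 0.118, adjusted p = 7.33e-05). SPIN1, a reader of histone marks, fell by 1.31 (SE 0.125, adjusted p = 5.76e-09), from 8.12, 8.33 and 8.52 to 6.71, 7.07 and 7.22, also further than in control cells, with a difference of -1.01 (SE 0.176, adjusted p = 7.60e-05). COL4A4, a basement membrane collagen, fell by 1.29 (SE 0.158, adjusted p = 3.90e-07) and NFAT5, a transcription factor of the osmotic response, by 1.57 (SE 0.24, adjusted p = 9.64e-06). The homeobox gene OTX1 was undetected on all 6 arrays at 72 h and was at least 2.44-fold lower there. It was detected on all 6 arrays at 4 h with and without MOTS-c and on 4 of 6 control arrays at 72 h. OTX1 thus passed the detection filter through the 4 h arrays, which favours a fall, and no p is given for it. The homeobox gene PROX1 fell by 1.50 (SE 0.143) and AAK1, a kinase of clathrin-mediated uptake, by 1.34 (SE 0.192), both detected on 5 of 6 arrays at 72 h. In 3 further genes with the largest falls the probes disagreed. HINT3, a nucleotide hydrolase, fell by 1.81 by 1 probe and changed by -0.42 by the other. TNRC6C, a scaffold of microRNA silencing, was undetected at 72 h by 1 probe, at least 2.08-fold lower, and changed by -0.12 by the other. GDF11, a ligand of the TGF-beta family, fell by 1.29 by 1 probe and changed by -0.03 by the other.

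Across genes, the 2 time courses resembled each other in part and differed in size. The log2 changes over time with and without MOTS-c, which share no arrays, had a Pearson r of 0.661 and a Spearman rho of 0.608 across 13283 genes, which were normalized together and are not independent replicates. The median absolute log2 change was 0.165 with the peptide and 0.281 without, and the SD of the changes was 0.294 against 0.484. In control cells 62.6% of genes were called over time, 31.9% higher and 30.7% lower, against 38.1% with MOTS-c. At least 2-fold changes in control cells were called for 396 higher genes (2.98%) and 195 lower ones (1.47%). Of the genes called with MOTS-c, 3566 (70.4%, or 42.9% of those called in control cells) moved the same way in control cells, 300 (5.9%) moved the opposite way, and 1201 were called with MOTS-c alone, which is no test of a difference. By that test, 4522 genes (34%) had a time effect that differed with MOTS-c, 2217 higher (16.7%) and 2305 lower (17.4%). The difference was at least 2-fold for 55 of the higher (0.414% of all genes) and 109 of the lower (0.821%). Over 13273 genes with a known gene length, the time effect had a Spearman rho with length of -0.198 in control cells and 0.014 with MOTS-c. The part of this trend in the differences was not tested. On the first principal component, with 54% of the variance, the MOTS-c groups had means of -18.3 at 4 h and 6.3 at 72 h, and the control groups -21.8 and 33.7. On the second, with 12.8% of the variance, the MOTS-c means were -4.4 at 4 h and 17.5 at 72 h. The control means there were -5.1 and -8. The 2 courses thus differed in direction as well as in size.

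**Figure D4:**
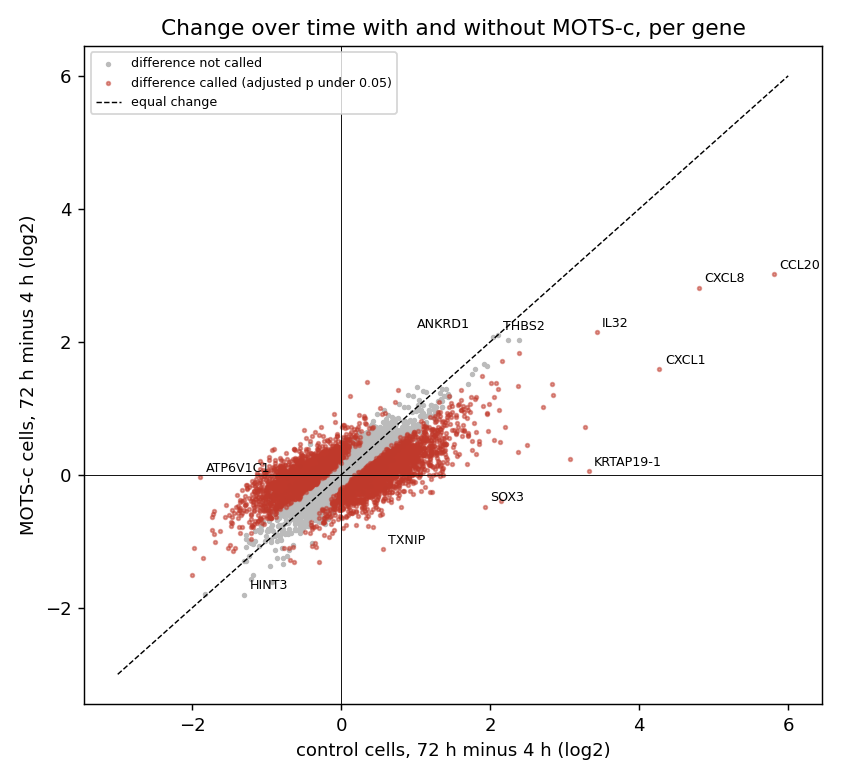
Log2 change from 4 h to 72 h of each gene in control cells (horizontal axis) and in MOTS-c cells (vertical axis), with genes called in the test of the difference in red and the line of equal change dashed. CCL20, CXCL8, CXCL1 and IL32 lie right of the line, TXNIP and SOX3 lie below 0 with MOTS-c and above 0 without, and ATP6V1C1 lies near 0 with MOTS-c and at -1.89 without.

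The 5 largest lower differences of the time effect were in KRTAP19-1, KRTAP19-6, CCL20, CXCL1 and CXCL2, of which the 3 chemokine genes are described above. KRTAP19-1, a keratin-associated protein gene, lay at 6.44, 6.64 and 7.02 at 4 h and 6.49, 6.72 and 7.09 at 72 h with the peptide, overlapping, and rose by 3.32 (SE 0.114) in control cells, a difference of -3.27 (SE 0.162, adjusted p = 6.02e-14). KRTAP19-6, of the same family, whose probe may share sequence with it, rose by 3.07 in control cells with a difference of -2.84 (SE 0.201, adjusted p = 6.79e-11). CXCL2 had a difference of -2.55 (SE 0.128), a fitted size, since it was undetected on all arrays at 4 h with MOTS-c. CXCL2 was also undetected on all 6 control arrays at 4 h. It thus passed the detection filter through the 72 h arrays alone, and no p is given for it. In the other direction, ATP6V1C1, a subunit of the proton pump of lysosomes, lay at 6.38, 7.05 and 7.41 and 6.76, 6.96 and 7.29 with MOTS-c, overlapping, and fell by 1.89 in control cells, a difference of 1.86 (SE 0.206, adjusted p = 1.65e-07). AMER2, a regulator of Wnt signalling, had a difference of 1.29 (SE 0.124, adjusted p = 1.88e-08) and SNORD17, a small nucleolar RNA read within its host gene, of 1.23 (SE 0.122, adjusted p = 2.88e-08). VPS13A, a lipid transfer protein, had a difference of 1.30 (SE 0.17, adjusted p = 1.88e-06), while at 1 of its other probes the difference was 0.30 and not called (adjusted p = 0.185), with a change of -0.14 over time with MOTS-c. BICD1, a dynein adaptor, had a difference of 1.30 (SE 0.219, adjusted p = 4.95e-05), which was -0.07 at another of its probes. Among the 300 genes that were called in opposite directions, the transcription factor SOX3, picked after its values were seen, fell by 0.48 with MOTS-c (SE 0.0839, adjusted p = 5.63e-05) and rose by 1.93 without it (SE 0.0839).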

How the data were processed

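RNA from 24 samples of HEK293 cells was measured on Illumina bead arrays, and groups were taken from the labels. GenomeStudio 2011.1 was used per the submitters' processing notes. The deposited table holds a bead intensity for each of 47323 probes and each array, as the authors exported it, with no background subtraction or scaling seen in the values. Each intensity has a detection p-value beside it, also deposited by the authors. A further deposited table holds a score, found by recomputation to be a within-array Z score of log10 intensity (largest difference 5e-10) and used as an alternative.

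In R 4.3.3, limma 3.58.1 (neqc) took the background from those p-values, added an offset of 16, normalized by quantiles and returned log2 levels. The filter kept the 23931 probes detected at p under 0.05 on 6 or more of 24 arrays, of which 17873 had 1 gene in the platform annotation. The brightest probe stood for each of 3619 genes with several, which left 13283 genes. A group-means model on all 24 arrays had 20 residual degrees of freedom and a prior worth 6.43. Contrasts were 72 h minus 4 h with MOTS-c, the same in control cells, and their difference. Tests were two-sided with Benjamini-Hochberg adjustment, and limma gave every adjusted p. A gene undetected on all 6 arrays of a group is given as a bound, the bright group's mean against the higher of the dim probe's signal and the lowest signal among detected probes. Chip, slide and scan date are not given in the sources used here, so no batch was tested.

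The members, the 31 pathway and 8 marker lists and the named genes' rule were chosen with earlier results of these data known. Genes named are the 12 largest changes each way among called genes with non-overlapping groups, the 5 largest differences each way, and the 3 smallest p of each pathway list with at least 5 measured members. Others are said to be picked after their values were seen. Same-numbered arrays shared little deviation from their group means: it correlated between -0.279 and 0.129 with MOTS-c and between -0.256 and 0.196 in control cells. Low correlations cannot exclude that same-numbered samples were handled together. Alternatives covered background, normalization, filters, probes, arrays, weights, prior, brightness, a replicate block, thresholds and leaving out each array. Promoters come from a RefSeq table (GRCh38.p14). Figures used Python 3.11.15 and matplotlib 3.10.9.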

Additional observations from a re-analysis of the deposited data

Results flagged for a closer look

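In 12 of 242 groups of 6 arrays tested (5%), 1 array of a named gene stood apart from the other 5, and chance alone gives about 1 in 20. At 4 h with MOTS-c these were log2 levels of 5.58 for CCL20 (replicate 4, next array 5.2), 7.75 for NFAT5 (replicate 2, next 7.23), 7.64 for CTSA (replicate 6, next 7.41) and 11.88 for ODC1 (replicate 4, next 11.66), all above the rest. Below the rest at 4 h lay 5.95 for DHRS2 (replicate 1, next 6.53), 10.7 for BHLHE40 (replicate 3, next 10.78), 10.12 for MTHFS (replicate 6, next 10.23) and 11.05 for PFKP (replicate 3, next 11.2). At 72 h, DBP was high on 1 array, at 7.09 (replicate 3, next 6.74), and BYSL at 10.25 (replicate 2, next 10.42), HSPA5 at 9.71 (replicate 5, next 9.84) and PSMA5 at 12.26 (replicate 1, next 12.43) were low.

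The change from 4 h to 72 h differed between MOTS-c and control cells by limma's test of the difference for 4522 genes, 65 of them among the 119 named ones. The log2 change with MOTS-c minus that without was below 0 in 39 named genes: KRTAP19-1 (-3.27), KRTAP19-6 (-2.84), CCL20 (-2.79), CXCL1 (-2.68), CXCL2 (-2.55), CXCL8 (-1.99), TXNIP (-1.68), IL32 (-1.28), RELB (-1.03), DDIT3 (-1.02), MT1X (-1.02), SPIN1 (-1.01), PSMB9 (-0.92), MT2A (-0.79), RPL29 (-0.73), IVD (-0.68), FOS (-0.66), CRYAB (-0.66), RRP12 (-0.63), FOSB (-0.57), TCIM (-0.55), BYSL (-0.55), PER2 (-0.52), HSPA5 (-0.52), ATF3 (-0.49), IRS4 (-0.48), ID2 (-0.47), CEBPG (-0.46), NSDHL (-0.45), TNFRSF12A (-0.44), ODC1 (-0.43), TAF1C (-0.39), CDH1 (-0.37), MTHFS (-0.37), CCN1 (-0.33), SRXN1 (-0.33), MTHFD1L (-0.33), TM7SF2 (-0.33) and MTF1 (-0.31). It was above 0 in 26 named genes: ATP6V1C1 (1.86), VPS13A (1.30), BICD1 (1.30), AMER2 (1.29), SNORD17 (1.23), ANKRD37 (1.06), H2BC21 (0.89), PSMA2 (0.84), MSMO1 (0.78), PSME4 (0.62), H2AC6 (0.49), CENPA (0.46), RPL37 (0.46), FADS2 (0.43), PSMA5 (0.39), ELOVL6 (0.35), PDK2 (0.35), GMPS (0.34), FJX1 (0.31), IDH2 (0.31), ATIC (0.30), ACO1 (0.28), UQCRC1 (0.27), SCD (0.27), GABARAPL1 (0.27) and NUSAP1 (0.21). Sizes for CXCL2, TCIM and CRYAB are fitted values, since these genes were undetected on all 6 arrays at 4 h with MOTS-c.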

How the results depend on the processing

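The count of genes called over time with MOTS-c lay between 3542 and 5623 of 13283 under the other background corrections, scalings, probe averages, array sets, weights and priors. With no detection filter it was 5311 of 20046, with a detection p under 0.01 on all 24 arrays 4020 of 9632, and with every probe tested separately 6583 of 17873. Median scaling over all probes gave 1091 lower calls and 69.2% of calls higher, against 52.2%, with a median log2 change of all genes of 0.07, and it gave 1144 genes with a lower time effect than in control cells. Median scaling over the kept probes, chosen after seeing the data, gave 4689 calls. At an adjusted p under 0.01 there were 3437 calls over time with MOTS-c, 1590 of them lower, and 2980 for the difference, 1381 of them higher. At least 2-fold changes numbered 118 with MOTS-c (75 higher, 43 lower), 591 in control cells (396 higher, 195 lower) and 164 for the difference (55 higher, 109 lower). With the replicate block 4994 genes were called with MOTS-c (2621 higher, 2373 lower), 8273 in control cells and 4433 for the difference. Same-numbered arrays were best matches for 1 of 6 numbers with MOTS-c and for 1 of 6 in control cells. Leaving out each array in turn gave 4509 to 5290 calls with MOTS-c (2401 to 2755 higher, 2108 to 2535 lower), 7967 to 8430 in control cells (4040 to 4264 higher, 3921 to 4166 lower) and 4078 to 5097 for the difference (1969 to 2566 higher, 2109 to 2531 lower). Changes that were not called turned sign for ATP6V1C1, to 0.012 under median scaling over all probes and 0.081 with array brightness as a covariate, and for KRTAP19-1, to -0.0049 with that covariate. With 1 array left out in turn ATP6V1C1 lay between -0.15 and 0.052 and KRTAP19-1 between -0.012 and 0.12. Another probe of VPS13A gave -0.14, and another of BICD1 gave a difference of -0.070. The cause was not tested. Of 1759 results of named genes over time with MOTS-c under other settings 1659 kept their direction and side of the threshold, and of 2856 with 1 array left out 2831 did. Median scaling over all probes ended the calls of CENPA, COX5B, DECR1, MT1X, MTHFS, RPL29 and TAF1C (adjusted p of 0.0568 to 0.25), and averaging the probes ended that of VPS13A (0.208). SNORD17 (adjusted p = 0.0175) was lost without MOTS-c 4 h replicate 6 (0.0599) or 72 h replicate 1 (0.057). Of 1405 called genes with several probes, all probes moved one way in 1053. Levels near background limit the genes undetected in a group, whose changes are bounds.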
